A study of Macaca mulatta with 20 samples.

Results

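The MAP kinase cascade carries signals from receptors at the cell surface to the nucleus through kinases that phosphorylate each other in sequence. Adaptors and the exchange factors SOS1 and SOS2 load Ras with GTP, MAP kinase kinase kinases (MAP3K) activate MAP kinase kinases (MAP2K), and these activate the ERK, JNK and p38 classes of MAP kinase (MAPK). Dual-specificity phosphatases (DUSP) switch MAP kinases off again, and the Sprouty (SPRY) and SPRED proteins hold back the Ras end of the ERK branch. Many DUSP and SPRY genes are themselves transcribed in response to the pathway and close a negative feedback loop. In blood cells the cascade acts downstream of antigen receptors in lymphocytes and of Toll-like and cytokine receptors in monocytes.

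The members were all probes of the array whose platform symbol begins with MAPK, MAP2K, MAP3K, MAP4K, DUSP, SPRY, SPRED or RPS6K, or is SOS1 or SOS2. They were 59 probes for 49 genes, of 7303 probes and 5236 genes in all. By role they were 2 Ras exchange factors, 2 MAP4K, 11 MAP3K, 3 MAP2K and 5 MAP kinases. There were also 5 kinases grouped by symbol as downstream of MAP kinases, 12 DUSP genes and 4 feedback inhibitors. Among the downstream kinases, RPS6KB2 was grouped by its letters alone, since it acts below mTOR. The other 5 genes share the letters of the pattern and not the role: MAPK8IP3 encodes a JNK scaffold, MAPKAP1 a subunit of an mTOR complex, SPRYD3 and SPRYD4 proteins with a domain unrelated to Sprouty, and MAP3K7CL resembles part of MAP3K7. For the 9 genes with several probes, the values are those of the probe that was brightest on average, and the other probes are given where they differ.

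RNA was measured on arrays in monocytes, in B cells and in T cells of the helper and the cytotoxic kind, all taken from the mononuclear cells in the blood of 5 rhesus macaques, which were adult females. Each animal gave 1 array for each cell type. The animals came from 5 social groups, and their dominance ranks ran from 1, the highest, to 5, the lowest. No treatment is named in the labels, so the groups differ in cell type and in rank. The arrays labelled cytotoxic T cells and B cells of the rank 4 animal were left out, so 18 arrays were used, with 5 for helper T cells, 5 for monocytes, 4 for cytotoxic T cells and 4 for B cells. Values below are given in the order of ranks 1 to 5, without rank 4 for cytotoxic T cells and B cells. In samples of many cells, fewer cells of a type and less RNA per cell cannot be told apart.

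The 2 arrays left out correlated at 0.876 with each other and at 0.148 to 0.193 with the other 18, while arrays of 1 type among those 18 correlated at 0.910 or more. The labels were checked against marker genes, given as the mean level of a list on each array. On the left-out array labelled cytotoxic T cells the T cell list read 8.15. On the one labelled B cells the B cell list read 8.15, so neither array showed the markers of its label. All ranges that follow are those of the 18 arrays used. The monocyte list (7 of 8 genes measured) stood at 13.15 to 13.58 in monocytes and at 7.93 to 8.19 in the other types. The T cell list (10 of 10) stood at 11.32 to 11.82 in cytotoxic T cells, 10.79 to 11.58 in helper T cells, 7.81 to 7.93 in monocytes and 8.23 to 8.74 in B cells. Within that list the B cell arrays read 9.41 to 11.17 for CD3D, 8.20 to 10.97 for CD8A and 8.23 to 9.98 for CD3G. For CD6 they read 8.17 to 8.82, for CD2 7.83 to 8.70 and for BCL11B 7.81 to 8.41. The rest were CD8B at 7.87 to 7.95, CD3E at 7.69 to 7.84, LAT at 7.58 to 7.71 and IL7R at 7.95 to 8.11. CD8A read 8.31 to 11.29 in helper T cells and 13.84 to 14.36 in cytotoxic T cells. The 2 measured genes of the B cell list, CD79B and CD72, stood together at 10.76 to 11.59 in B cells and at 7.84 to 8.01 elsewhere. The NK cell list (4 of 6) read 10.53 to 11.63 in cytotoxic T cells and 8.34 to 9.97 in helper T cells. Of the granulocyte list (3 of 6), CAMP stood at 13.35 to 13.95 in monocytes, with LTF at 7.98 to 8.33 and MPO at 8.19 to 8.40. The dendritic cell gene FCER1A read 8.05 to 9.39 in monocytes, and the platelet list (3 of 6) lay between 7.88 and 8.01 on all 18 arrays. The 2 plasma cell genes measured, JCHAIN and MZB1, averaged 8.93 to 9.82 in B cells and at most 8.08 elsewhere. The part of these cells in the results below was not tested.

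In monocytes 13 of the 49 genes were highest, where 18.4% of all probes were, and 8 were lowest, where 22.5% were. None of the 5 MAP kinases was either. All 4 feedback inhibitors were highest in monocytes, as were DUSP6 and DUSP1, the ERK and p38 branch kinases MAP2K1 and MAP2K3, and the downstream kinases MAPKAPK2 and MAPKAPK3. The upstream kinases MAP3K11 and MAP3K20 were also highest in monocytes, as was the phosphatase DUSP23. Other upstream kinases, MAP3K1, MAP3K4, MAP3K5 and MAP3K7, were lowest there, together with SOS1, MAP4K5, MAPK8IP3 and the phosphatase DUSP12. B cells were highest in 3 genes, MAP3K1, MAP3K10 and MAPK3, where 5.26% of all probes were. Helper T cells were highest in SOS1, where 0.822% of all probes were, and cytotoxic T cells in MAP4K5, where 0.904% were. MAP3K10, MAPK3 and MAP4K5 did not stay highest when 1 animal or another was left out. Nor did DUSP23, MAPKAPK2 and SPRY4 stay highest, or MAPK8IP3 lowest, in monocytes.

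Differences were tested with limma's moderated test with the animal as a block, and a call is a Benjamini-Hochberg adjusted p under 0.05 over all 7303 probes. Each value is a level on the deposited log scale, used as log2, and each difference is a fitted log2 difference ± its standard error. Over the 4 cell types, 46 of the 59 member probes differed by the F test, against 67.4% of all probes, and 37 of the 49 genes did. A gene is called highest or lowest in a type when it was called against each of the other 3. For monocytes 18 member probes (13 genes) were highest, against 18.4% of all probes, and 9 probes (8 genes) were lowest, against 22.5%. In B cells 3 member probes were highest, against 5.26%, and 1 was lowest, against 2.37%. Helper T cells had 1 highest, against 0.822%, and 1 lowest, against 0.11%. Cytotoxic T cells had 1 highest, against 0.904%, and 0 lowest, against 0.123%. Single genes carry the account, since the shares of members in B cells and both T cell types rest on 3 probes or fewer.

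**Figure D1:**
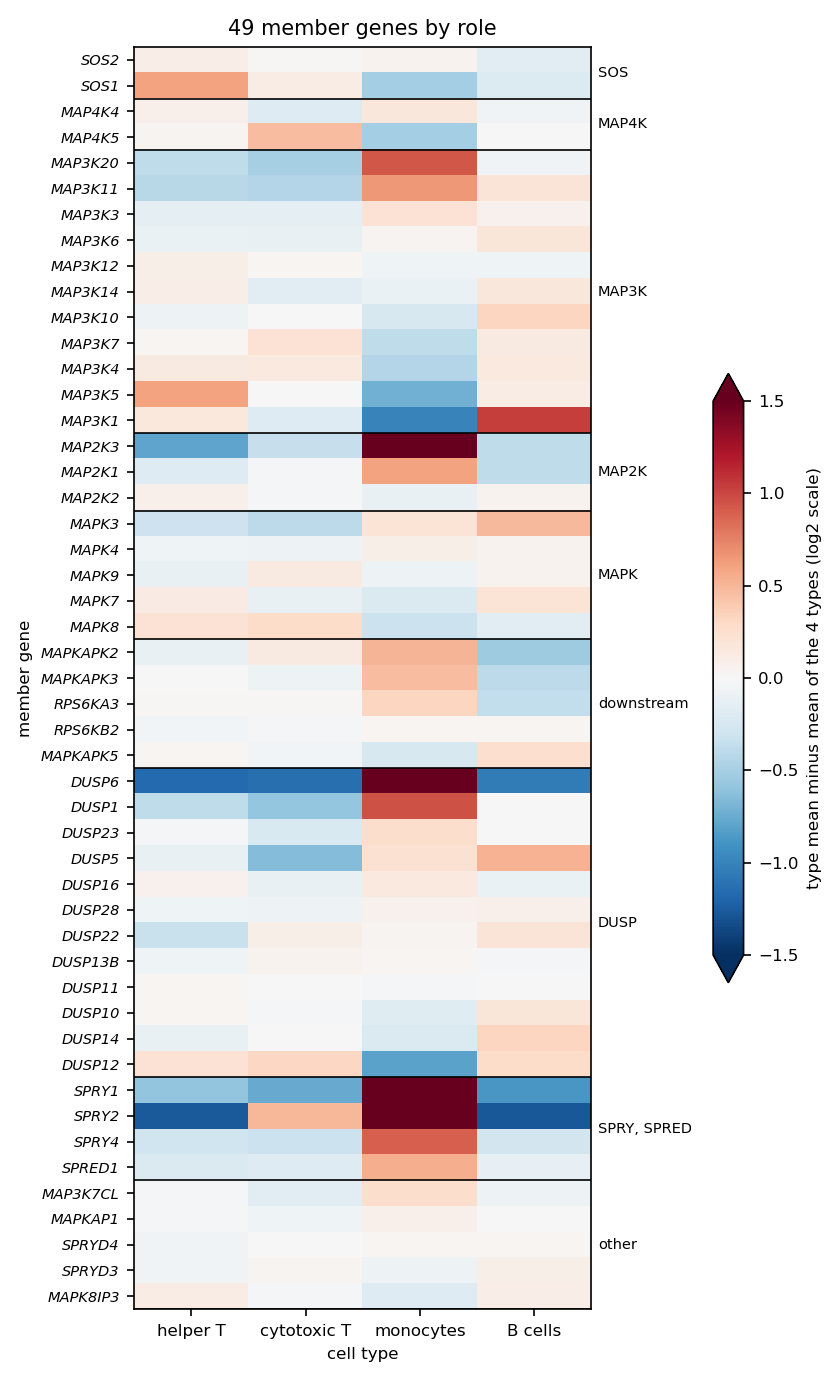
Mean level of each of the 49 member genes in each cell type minus the mean of the 4 type means (colour, log2 scale, limited to -1.5 to 1.5), with genes grouped by role from the Ras exchange factors at the top to the feedback inhibitors and other genes at the bottom. The 4 feedback inhibitors, DUSP6, DUSP1, MAP2K3, MAP2K1, MAP3K20 and MAP3K11 are red in the monocyte column. MAP3K1, MAP3K5, DUSP12, SOS1 and MAP4K5 are blue there.

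At the Ras end, SOS1 formed a graded order over the 4 types. SOS1 read 9.11, 8.83, 9.12, 8.84 and 8.87 in helper T cells and 8.45, 8.40, 8.59 and 8.41 in cytotoxic T cells. It read 8.15, 8.04, 8.16 and 8.19 in B cells and 7.67, 7.74, 7.93, 7.81 and 8.03 in monocytes. All of these monocyte values lie below the lower quartile of each array, 8.04. No 2 types overlapped, and the order from helper T cells through cytotoxic T cells and B cells to monocytes was the same in the 4 animals with all types. Helper T cells exceeded cytotoxic T cells by 0.51 ± 0.08 (adjusted p = 0.00208), B cells by 0.83 ± 0.08 (2.57e-06) and monocytes by 1.12 ± 0.07 (1.28e-08). Cytotoxic T cells exceeded B cells by 0.33 ± 0.08 (adjusted p = 0.00652), which did not pass without the animal of rank 2 (0.0513) or rank 3 (0.0595). The second exchange factor, SOS2, spanned 8.07 to 8.57 on the 18 arrays and was lower in B cells than in helper T cells by 0.26 ± 0.06 (adjusted p = 0.00748). SOS2 was also higher in monocytes than in B cells by 0.21 ± 0.06 (adjusted p = 0.0119), a call lost without the animal of rank 2 (0.0802) or rank 3 (0.0746).

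Both MAP4K genes differed over the types by the F test, against 67.4% of all probes. MAP4K5, a germinal centre kinase that feeds the JNK branch, read 9.95, 9.69, 10.03 and 9.83 in cytotoxic T cells and 9.58, 9.43, 9.61, 9.28 and 9.39 in helper T cells. In B cells it read 9.64, 9.36, 9.24 and 9.40, and in monocytes 8.89, 8.84, 8.90, 8.93 and 8.97. All cytotoxic T cell arrays lay above all others, and all monocyte arrays lay below all others. The margin was 0.40 ± 0.08 over helper T cells (adjusted p = 0.0182) and 0.46 ± 0.08 over B cells (0.00105), and monocytes lay 0.49 ± 0.08 below B cells (0.000207). The margin over helper T cells did not pass without the animal of rank 1 (adjusted p = 0.100), rank 2 (0.0554) or rank 5 (0.137). A second MAP4K5 probe gave 0.23 ± 0.06 for the same margin (adjusted p = 0.0596) and was also called lowest in monocytes by each of its 3 contrasts. MAP4K4, a related kinase, was lowest on average in cytotoxic T cells (8.24 ± 0.03, SD, n = 4) and highest in monocytes (8.60 ± 0.16, n = 5), a difference of 0.29 ± 0.05 (adjusted p = 0.000228).

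All 11 MAP3K genes differed over the types by the F test, with 2 called highest in monocytes, 2 highest in B cells and 4 lowest in monocytes. The shares of all probes were 67.4% for the F test, 18.4% and 5.26% for highest in monocytes and B cells, and 22.5% for lowest in monocytes. MAP3K1 (MEKK1), which feeds the JNK and ERK branches, had the widest range of the 11. It read 11.78, 11.78, 12.27 and 12.81 in B cells and 10.83, 10.93, 11.83, 11.16 and 11.62 in helper T cells. The cytotoxic T cell arrays read 10.72, 10.87, 11.12 and 10.97, and the monocyte arrays 10.02, 9.91, 10.20, 9.66 and 10.78. B cells overlapped only helper T cells, where the array of rank 3 reached 11.83, and monocytes overlapped only cytotoxic T cells. The difference of monocytes from B cells was -1.98 ± 0.15 (adjusted p = 1.59e-07), and helper T cells differed from B cells by -0.81 ± 0.15 (0.00109) and from monocytes by 1.16 ± 0.14 (7.00e-06). The B cell arrays also carried the T cell list at 8.23 to 8.74, whose part here was not tested.

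MAP3K5 (ASK1), a kinase activated by oxidative stress, followed another order. Its helper T cell values were 9.93, 10.05, 10.69, 10.47 and 10.25, and its monocyte values 8.68, 8.37, 9.44, 8.76 and 9.54. Cytotoxic T cells read 9.84, 9.19, 10.19 and 9.50 and B cells 9.82, 9.53, 9.88 and 9.91. Helper T cells and monocytes did not overlap, and they differed by 1.32 ± 0.16 (adjusted p = 8.49e-06), with helper T cells higher in 5 of 5 animals. Monocytes were also below B cells by 0.82 ± 0.17 (adjusted p = 0.00121) and below cytotoxic T cells by 0.72 ± 0.17 (0.00282). The difference of 0.60 ± 0.17 between helper and cytotoxic T cells did not pass (adjusted p = 0.0985), although it had the same sign in 4 of 4 animals. MAP3K4, which GADD45 proteins activate, was nearly level in the lymphocytes, with means of 8.39, 8.40 and 8.40, and lay at 7.75 to 7.94 in monocytes, without overlap. MAP3K7 (TAK1), which acts below Toll-like and IL-1 receptors, was lower in monocytes than in cytotoxic T cells by 0.55 ± 0.11 (adjusted p = 0.000576), with SDs of 0.41 to 0.49 in the lymphocytes against 0.17 in monocytes.

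MAP3K20 (ZAK), a sensor of stalled ribosomes, ran the other way. It read 9.47, 9.38, 9.66, 9.36 and 9.51 in monocytes and 8.30, 8.31, 8.67 and 8.70 in B cells. Helper T cells read 8.23, 8.19, 8.14, 8.14 and 8.10 and cytotoxic T cells 8.10, 8.04, 8.12 and 7.93. All monocyte arrays lay above all B cell arrays, which lay above all T cell arrays, and monocytes exceeded B cells by 1.00 ± 0.09 (adjusted p = 4.58e-07). MAP3K11 (MLK3), a mixed-lineage kinase, was at 9.44 to 9.91 in monocytes, 9.08 to 9.48 in B cells, 8.26 to 9.13 in helper T cells and 8.26 to 8.99 in cytotoxic T cells. Monocytes exceeded B cells in MAP3K11 by 0.48 ± 0.12 (adjusted p = 0.00527), with overlap, and helper T cells by 1.06 ± 0.11 (3.04e-06), without overlap.

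MAP3K10 (MLK2), another mixed-lineage kinase, was highest in B cells. It read 8.62, 8.25, 8.36 and 8.66 in B cells and 8.07, 8.12, 8.26 and 8.19 in cytotoxic T cells. Helper T cell arrays read 7.95, 8.01, 8.13, 8.03 and 8.24 and monocytes 7.80, 7.89, 8.09, 7.74 and 8.02. The B cell arrays overlapped those of cytotoxic T cells and no others. The difference from cytotoxic T cells was -0.31 ± 0.08 (cytotoxic T cells minus B cells, adjusted p = 0.0131), a call lost without the animal of rank 1 (0.0811) or rank 5 (0.120). Of the remaining MAP3K genes, MAP3K3 was higher in monocytes than in helper T cells by 0.36 ± 0.07 (adjusted p = 0.000779) and MAP3K14 (NIK), which acts in non-canonical NF-kappaB signalling, was lower in monocytes than in B cells by 0.32 ± 0.10 (0.0181). The latter did not pass without the animal of rank 2 (adjusted p = 0.102). MAP3K6 (ASK2) and MAP3K12 were called in 2 contrasts each, with differences of 0.29 or less in size, and each of these calls was lost without at least 1 animal (adjusted p of 0.0543 to 0.183).

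Of the 3 MAP2K genes, 2 were highest in monocytes, against 18.4% of all probes. MAP2K3 (MKK3), which phosphorylates p38 kinases, read 11.95, 12.11, 10.82, 12.22 and 11.59 in monocytes and 9.36, 9.64, 9.22, 9.56 and 9.41 in helper T cells. Cytotoxic T cells read 10.05, 10.12, 9.75 and 9.63, and B cells 9.85, 10.26, 9.68 and 9.61. Every monocyte array lay above all lymphocyte arrays, and the lowest of them was that of rank 3. Monocytes exceeded helper T cells by 2.30 ± 0.14 (adjusted p = 1.05e-08), B cells by 1.81 ± 0.15 (3.80e-07) and cytotoxic T cells by 1.78 ± 0.15 (3.70e-07). The other 2 MAP2K3 probes were also called highest in monocytes, by 0.45 ± 0.09 and 1.00 ± 0.13 over B cells (adjusted p = 0.0012 and 2.63e-05). Helper T cells lay 0.49 ± 0.15 below B cells in the first probe alone (adjusted p = 0.0307), and this did not pass without the animal of rank 1 (0.0998), rank 2 (0.143), rank 4 (0.0521) or rank 5 (0.0509).

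MAP2K1 (MEK1), an ERK kinase, was at 9.94 to 10.49 in monocytes, 8.84 to 9.90 in helper T cells, 8.96 to 9.99 in cytotoxic T cells and 8.74 to 9.75 in B cells. Monocytes were higher by 1.04 ± 0.11 than B cells (adjusted p = 3.97e-06), 0.80 ± 0.10 than helper T cells (1.48e-05) and 0.70 ± 0.11 than cytotoxic T cells (0.000121). Within each lymphocyte type its SD was 0.48 to 0.54, among the 5 largest of the members in that type, and the arrays of ranks 3 and 5 held its highest values in every type. MAP2K2 (MEK2), the other ERK kinase, spanned 8.62 to 9.48 and did not differ by the F test (adjusted p = 0.325).

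**Figure D2:**
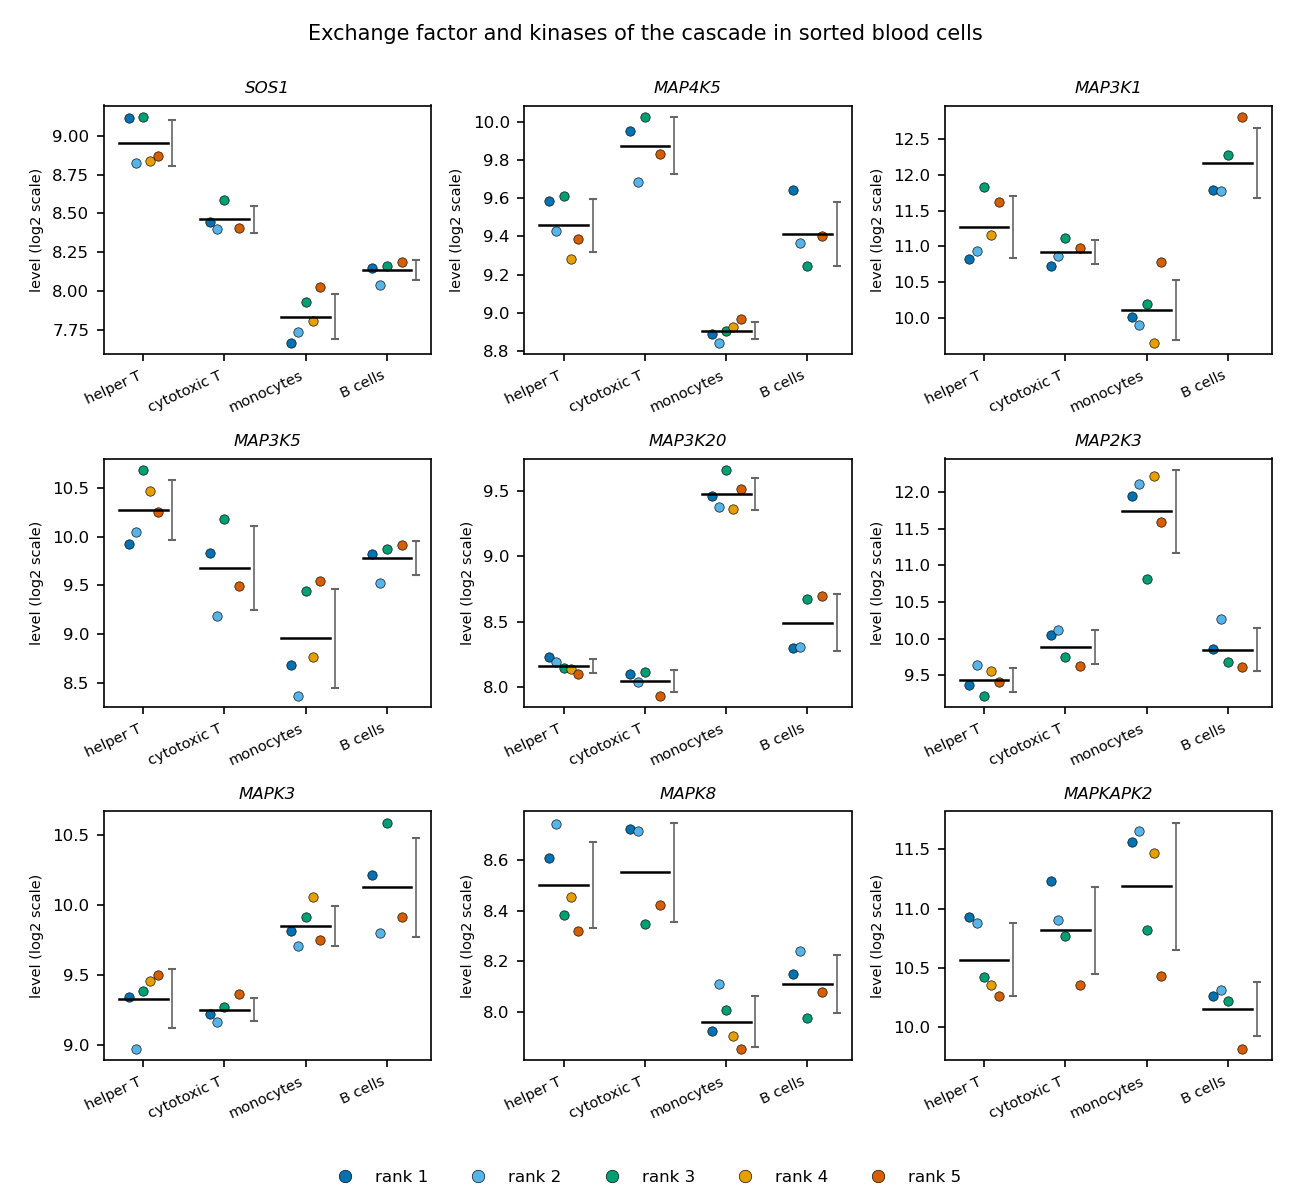
Level of 9 members from SOS1 to MAPKAPK2 on each of the 18 arrays (log2 scale, each panel with its own range, not starting at 0), by cell type and coloured by the rank of the animal, with the mean as a line and the SD as a bar beside it. SOS1 falls without overlap from helper T cells at 8.83 to 9.12 to monocytes at 7.67 to 8.03, while MAP2K3 and MAP3K20 are highest in all 5 monocyte arrays.

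Among the MAP kinases, the ERK gene MAPK3 and the JNK gene MAPK8 differed in opposite ways. MAPK3 (ERK1) read 10.22, 9.80, 10.59 and 9.91 in B cells and 9.81, 9.71, 9.91, 10.06 and 9.75 in monocytes. In helper T cells it read 9.34, 8.97, 9.38, 9.46 and 9.50, and in cytotoxic T cells 9.22, 9.16, 9.27 and 9.36. B cells and monocytes overlapped, and both lay above all T cell arrays. B cells exceeded helper T cells by 0.84 ± 0.11 (adjusted p = 6.62e-05) and cytotoxic T cells by 0.88 ± 0.11 (5.87e-05). Monocytes minus B cells was -0.32 ± 0.11 (adjusted p = 0.0236), a call lost without the animal of rank 1 (0.116) or rank 3 (0.128) and not made by the second MAPK3 probe (-0.12 ± 0.09, 0.286). That second probe was called in the other 4 contrasts with the same signs.

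MAPK8 (JNK1) was higher in both T cell types than in the other 2 types. It read 8.61, 8.74, 8.38, 8.45 and 8.32 in helper T cells and 8.72, 8.71, 8.35 and 8.42 in cytotoxic T cells. Monocytes read 7.93, 8.11, 8.01, 7.91 and 7.86 and B cells 8.15, 8.24, 7.98 and 8.08. All T cell arrays lay above all monocyte and B cell arrays. Helper T cells exceeded monocytes by 0.54 ± 0.06 (adjusted p = 3.34e-06) and B cells by 0.40 ± 0.06 (0.000352), and cytotoxic T cells exceeded them by 0.58 ± 0.06 (4.71e-06) and 0.44 ± 0.07 (0.000231). MAPK7 (ERK5) was lower in monocytes than in B cells by 0.42 ± 0.10 (adjusted p = 0.00237) and than in helper T cells by 0.34 ± 0.09 (0.00455), without overlap in either. MAPK9 (JNK2) at 8.61 to 9.29 and the atypical MAPK4 at 7.88 to 8.41 did not differ by the F test (adjusted p = 0.102 and 0.0927).

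Of the 5 downstream kinases, 2 were highest in monocytes, MAPKAPK2 and MAPKAPK3, against 18.4% of all probes. MAPKAPK2 (MK2), which controls the stability of cytokine mRNAs, read 11.57, 11.66, 10.82, 11.47 and 10.43 in monocytes and 11.24, 10.91, 10.77 and 10.35 in cytotoxic T cells. Helper T cells read 10.93, 10.88, 10.42, 10.36 and 10.27 and B cells 10.26, 10.32, 10.22 and 9.82. Monocytes overlapped both T cell types but not B cells, from which they differed by 1.02 ± 0.14 (adjusted p = 3.56e-05). The margin over cytotoxic T cells was 0.36 ± 0.14 (adjusted p = 0.0384), which did not pass without the animal of rank 1 (0.0895), rank 2 (0.238) or rank 4 (0.0573). B cells were called lowest through a difference of 0.41 ± 0.14 from helper T cells (adjusted p = 0.0487), which was lost without the animal of rank 1 (0.254), rank 2 (0.179), rank 3 (0.0556) or rank 5 (0.0924). MAPKAPK3 (MK3) was at 11.57 to 12.12 in monocytes and exceeded B cells by 0.94 ± 0.11 (adjusted p = 1.38e-05) and cytotoxic T cells by 0.61 ± 0.11 (0.000451). MAPKAPK5 was called only in monocytes minus B cells (-0.48 ± 0.14, adjusted p = 0.011), a call lost without the animal of rank 1 (0.115). Its lowest type mean, 8.61, was that of monocytes.

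The 2 probes of RPS6KA3 (RSK2), a kinase below ERK, did not give the same picture. The first spanned 8.36 to 9.63 in monocytes and 8.18 to 8.36 in B cells, with a difference of 0.71 ± 0.21 (adjusted p = 0.0124) that was lost without the animal of rank 1 (0.0660) or rank 2 (0.0861), and it did not pass the F test (adjusted p = 0.0584). The second passed it (adjusted p = 0.000326) and was higher in both T cell types than in monocytes and B cells, by 0.81 ± 0.14 for cytotoxic T cells over B cells (adjusted p = 0.000743), and no contrast was called by both probes. RPS6KB2, an S6 kinase below mTOR, lay between 7.79 and 7.96 on all 18 arrays and did not differ by the F test (adjusted p = 0.476).

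Of the 12 DUSP genes, 9 differed by the F test, 3 were highest in monocytes, 1 was lowest there and 1 was lowest in helper T cells. Of all probes 67.4% passed the F test, 18.4% were highest and 22.5% lowest in monocytes, and 0.11% were lowest in helper T cells. DUSP6, the cytoplasmic phosphatase of ERK, had the largest fitted difference of all members. It read 12.33, 12.28, 11.74, 12.36 and 12.27 in monocytes. Helper T cell arrays read 7.62, 7.72, 7.67, 7.69 and 7.75, cytotoxic T cells 7.75, 7.77, 7.71 and 7.69, and B cells 7.81, 7.80, 7.68 and 7.95. The lymphocyte values lie below the lower quartile of each array, 8.04, and the highest of them, 7.95 in a B cell array, is far below the lowest monocyte value of 11.74. The lowest value on the arrays is 7.501. The sizes of differences from levels this near it, here and for SPRY2, SPRY4 and SPRED1, are therefore lower bounds at best. The same holds for SOS1 and MAP3K4 in monocytes, at 7.67 to 8.03 and 7.75 to 7.94. RPS6KB2, DUSP13B and SPRYD4 lay near these levels in every type, where a difference might not show. Monocytes exceeded helper T cells by 4.51 ± 0.08 (adjusted p = 9.17e-14), cytotoxic T cells by 4.45 ± 0.09 (3.22e-13) and B cells by 4.37 ± 0.09 (4.08e-13). The second DUSP6 probe gave 2.55 ± 0.08 over B cells (adjusted p = 1.81e-11) and the same 3 calls.

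DUSP1, a nuclear phosphatase of p38 and JNK that is induced by stress and glucocorticoids, was also highest in monocytes, with more spread. Its monocyte values were 9.67, 8.80, 9.66, 9.59 and 10.23, and its B cell values 8.71, 8.24, 8.81 and 8.81. Helper T cells read 8.44, 7.89, 8.17, 8.55 and 8.22 and cytotoxic T cells 8.07, 8.00, 8.05 and 8.10. The animal of rank 2 had the lowest value of each of the 4 types, and its monocyte array at 8.80 fell just within the B cell range. Monocytes exceeded B cells by 0.91 ± 0.16 (adjusted p = 0.000256), higher in 4 of 4 animals, helper T cells by 1.33 ± 0.14 (3.01e-06) and cytotoxic T cells by 1.50 ± 0.16 (2.66e-06). B cells exceeded cytotoxic T cells by 0.59 ± 0.16 (adjusted p = 0.0161), a call lost without the animal of rank 1 (0.0967) or rank 3 (0.102).

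DUSP5, a nuclear phosphatase of ERK, lay at 10.59 or more on all 18 arrays and did not follow DUSP6. It read 12.08, 12.32, 12.14 and 11.84 in B cells and 12.15, 12.43, 11.34, 12.16 and 10.94 in monocytes. Helper T cell arrays read 11.57, 11.77, 11.12, 11.49 and 11.37 and cytotoxic T cells 10.94, 11.08, 11.10 and 10.59. B cells lay above all T cell arrays, and helper above cytotoxic T cells, while the monocyte arrays of ranks 3 and 5 lay among the T cell values. B cells exceeded cytotoxic T cells by 1.17 ± 0.19 (adjusted p = 0.000385) and helper T cells by 0.68 ± 0.18 (0.0137), the latter not without the animal of rank 3 (0.0661). Helper T cells minus cytotoxic T cells was 0.49 ± 0.18 (adjusted p = 0.239) and monocytes minus B cells was -0.34 ± 0.18 (0.133), and neither was called.

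DUSP12, an atypical phosphatase with a zinc-binding domain, was the DUSP gene lowest in monocytes. It read 9.25, 9.65, 9.78, 9.38 and 9.70 there. Helper T cells read 10.44, 10.21, 10.86, 10.71 and 10.60, cytotoxic T cells 10.58, 10.58, 10.74 and 10.74, and B cells 10.61, 10.86, 10.72 and 10.32. All lymphocyte arrays lay above all monocyte arrays, and the lymphocyte types overlapped each other. The difference was 1.02 ± 0.12 for helper T cells (adjusted p = 8.71e-06), 1.10 ± 0.13 for cytotoxic T cells (1.03e-05) and 1.07 ± 0.13 for B cells (1.59e-05).

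DUSP22, an atypical phosphatase known in mice to restrain proximal T cell receptor signalling, was lowest in helper T cells. It read 8.60, 8.70, 8.59, 8.57 and 8.72 in helper T cells and 9.05, 8.998, 8.97 and 9.20 in cytotoxic T cells. Monocytes read 8.93, 8.94, 8.88, 9.06 and 9.23 and B cells 9.13, 8.92, 9.19 and 9.37. All helper T cell arrays lay below all other arrays. The difference was -0.42 ± 0.07 from cytotoxic T cells (adjusted p = 0.00339), -0.37 ± 0.06 from monocytes (0.000128) and -0.52 ± 0.07 from B cells (5.99e-05). Without the animal of rank 1 the first of these did not pass (adjusted p = 0.0657), and the second DUSP22 probe was called against B cells alone (-0.35 ± 0.08, 0.00791), with -0.30 ± 0.08 against cytotoxic T cells (0.0835).

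Smaller differences were found in the other DUSP genes. DUSP23, a small atypical phosphatase, was higher in monocytes than in cytotoxic T cells by 0.52 ± 0.08 (adjusted p = 0.000111), with SDs of 0.38 to 0.59 within the types, and its call over B cells (0.30 ± 0.08, 0.00822) was lost without the animal of rank 2 (0.0638). DUSP14 was higher in B cells, at 7.92 to 8.88, than in monocytes by 0.52 ± 0.12 (adjusted p = 0.00284) and than in helper T cells by 0.42 ± 0.12 (0.0235), the latter not without the animal of rank 5 (0.0756). DUSP10, a phosphatase of p38 and JNK, was lower in monocytes than in B cells by 0.38 ± 0.11 (adjusted p = 0.00894), not without the animal of rank 2 (0.0584). DUSP16, which acts on JNK, was higher in monocytes than in cytotoxic T cells by 0.24 ± 0.08 (adjusted p = 0.0189), not without the animal of rank 3 (0.0756) or rank 5 (0.0744). The RNA phosphatase DUSP11, DUSP13B and DUSP28 did not differ by the F test (adjusted p = 0.859, 0.531 and 0.104).

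All 4 feedback inhibitors were highest in monocytes, against 18.4% of all probes, by margins from 0.66 to 3.25 over B cells. In lymphocytes SPRY4 and SPRED1 stayed below the lower quartile of 8.04 on every array. SPRY1 read 11.47, 11.17, 11.00, 10.99 and 11.28 in monocytes and 8.60, 8.40, 8.35, 8.16 and 8.30 in helper T cells. Cytotoxic T cells read 8.09, 8.20, 8.34 and 8.18 and B cells 8.02, 8.08, 7.96 and 8.27. The monocyte arrays lay far above all others, by 3.15 ± 0.10 over B cells (adjusted p = 2.39e-11) and 2.82 ± 0.09 over helper T cells (1.68e-11). A second SPRY1 probe gave 2.36 ± 0.07 over B cells (adjusted p = 2.55e-11) and the same 4 calls. The fourth of them, helper T cells over B cells by 0.33 ± 0.10 (adjusted p = 0.0226), did not pass in the first probe without the animal of rank 1 (0.0926) or rank 2 (0.0935).

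SPRY2 differed from the other 3 in that cytotoxic T cells stood between monocytes and the remaining lymphocytes. It read 11.90, 11.30, 9.92, 11.64 and 10.52 in monocytes and 9.34, 8.70, 9.85 and 10.17 in cytotoxic T cells. Helper T cell arrays read 7.62, 8.26, 7.67, 7.62 and 7.63 and B cells 7.68, 7.78, 7.74 and 7.82. All cytotoxic T cell arrays lay above all helper T and B cell arrays, and they overlapped the monocytes through the monocyte array of rank 3 alone. Monocytes exceeded cytotoxic T cells by 1.49 ± 0.38 (adjusted p = 0.00406) and B cells by 3.25 ± 0.38 (8.58e-06). Cytotoxic T cells exceeded B cells by 1.76 ± 0.39 (adjusted p = 0.00409) and helper T cells by 1.81 ± 0.38 (0.0202). The last call did not pass without the animal of rank 1 (adjusted p = 0.100), rank 3 (0.0871) or rank 5 (0.156), although SPRY2 was higher in cytotoxic T cells in 4 of 4 animals. In the same cytotoxic T cell arrays the NK cell list read 11.46, 10.53, 11.51 and 11.63, and the array of rank 2 was lowest in both. In helper T cells the array of rank 5 had the highest NK cell list, 9.97, with SPRY2 at 7.63, while SPRY2 was highest in the array of rank 2, where that list read 9.15. The part of NK cells in the SPRY2 level was not tested.

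SPRY4 varied more among monocyte arrays than any other member gene did within a type. Its values were 9.73, 10.21, 8.05, 8.94 and 8.04 in monocytes, with an SD of 0.98 against a median SD of 0.17 over the member genes. Helper T cells read 7.68, 7.80, 7.82, 7.92 and 7.73, cytotoxic T cells 7.78, 7.74, 7.82 and 7.75, and B cells 7.79, 7.84, 7.86 and 7.81. The monocyte arrays of ranks 3 and 5 lay just above the lymphocytes and those of ranks 1 and 2 well above, without overlap. Monocytes exceeded B cells by 1.16 ± 0.33 (adjusted p = 0.00943), which did not pass without the animal of rank 1 (0.0792) or rank 2 (0.0572). The second SPRY4 probe ranged from 7.72 to 10.85 in monocytes and from 7.54 to 7.69 in the lymphocytes. SPRED1, which binds the Ras regulator neurofibromin, was at 7.90 to 8.94 in monocytes and at 7.60 to 7.85 in the lymphocytes, and exceeded B cells by 0.66 ± 0.13 (adjusted p = 0.00098).

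**Figure D3:**
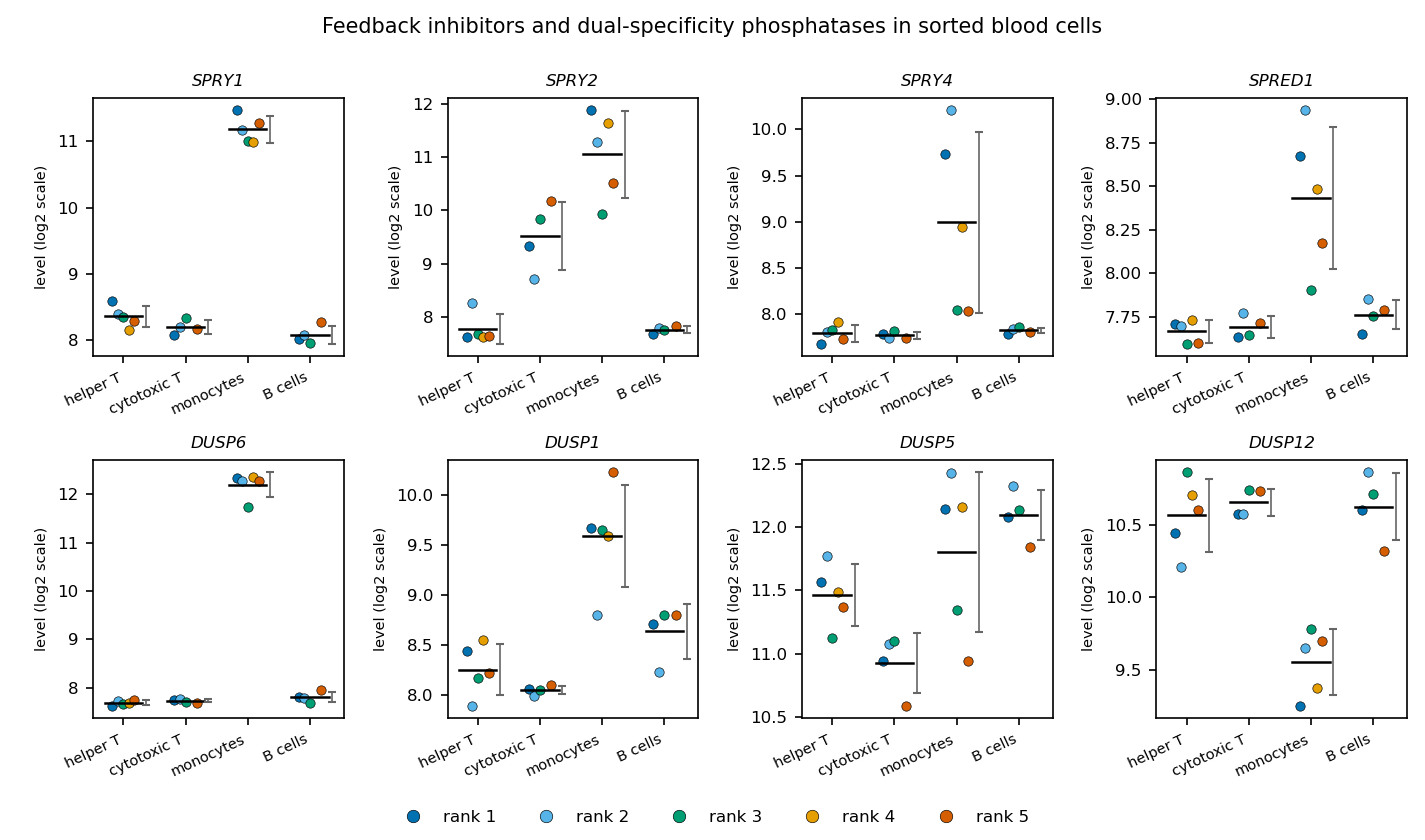
Level of 4 feedback inhibitors (top) and 4 dual-specificity phosphatases (bottom) on each of the 18 arrays (log2 scale, each panel with its own range, not starting at 0), by cell type and coloured by the rank of the animal, with the mean as a line and the SD as a bar. The 5 monocyte arrays are above all lymphocyte arrays for SPRY1, SPRY4, SPRED1 and DUSP6, SPRY2 is intermediate in cytotoxic T cells, and DUSP12 is lowest in monocytes.

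Of the 5 genes that share letters with the family, only MAPK8IP3 differed by the F test, against 67.4% of all probes. It was called lowest in monocytes, where it lay 0.33 ± 0.07 below B cells (adjusted p = 0.00152), and its call against cytotoxic T cells (0.21 ± 0.07, 0.0202) was lost without the animal of rank 1 (0.119), rank 2 (0.0613) or rank 3 (0.0764). MAPKAP1, by both probes, SPRYD3, SPRYD4 and MAP3K7CL did not differ by the F test (adjusted p = 0.0947 or more for the probes described). Over all 49 genes, 12 did not differ by the F test in the probe described, RPS6KA3 among them, and their type means spanned 0.06 to 0.70. Of these 12, RPS6KA3 had the called contrast given above, and MAPK4, DUSP28 and MAP3K7CL were called below monocytes in cytotoxic T cells, by 0.18 ± 0.07 (adjusted p = 0.0414), 0.18 ± 0.07 (0.0441) and 0.43 ± 0.16 (0.0286), and each call was lost without at least 1 animal (0.0539 to 0.184).

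The 2 T cell types were closest to each other, and 4 member probes separated them, against 2.64% of all probes. SOS1 was higher in helper T cells, where 1.2% of all probes were called, and SPRY2, DUSP22 and MAP4K5 were lower there, where 1.44% were called. The last 3 are the calls described above as lost without 1 animal or another, while SOS1 passed without each animal in turn (adjusted p of 0.0299 or less). The median difference over the member probes was 0.02, against 0.00 over all probes.

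Helper T cells and monocytes differed at 35 member probes, against 61.5% of all probes. Helper T cells were higher at 13, against 34%, and lower at 22, against 27.5%. By gene, 11 were higher and 16 lower in helper T cells, and the largest of each were MAP3K5 and DUSP6. Cytotoxic T cells and monocytes differed at 39 member probes, against 59.3%. Cytotoxic T cells were higher at 12, against 32.8%, and lower at 27, against 26.5%, and the median difference of the members was -0.16 against 0.00 over all probes. DUSP12 was the gene with the largest margin for cytotoxic T cells and DUSP6 for monocytes.

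B cells were nearer to the T cells than monocytes were. Helper T cells and B cells differed at 21 member probes, against 25.2%, with 9 higher in helper T cells, against 13.3%, and 12 lower, against 11.9%. Here SOS1 led on the helper side, and MAPK3 and MAP3K1 on the B cell side. Cytotoxic T cells and B cells differed at 18, against 24.9%, with 7 higher in cytotoxic T cells, against 12.8%, and 11 lower, against 12.1%. SPRY2 led on the cytotoxic side and MAP3K1 on the B cell side. Monocytes and B cells differed at 38, against 53.6%, with 22 higher in monocytes, against 22.8%, and 16 lower, against 30.8%. DUSP6 led on the monocyte side and MAP3K1 on the B cell side. The 6 contrasts share arrays, so their counts are not independent of each other.

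**Figure D4:**
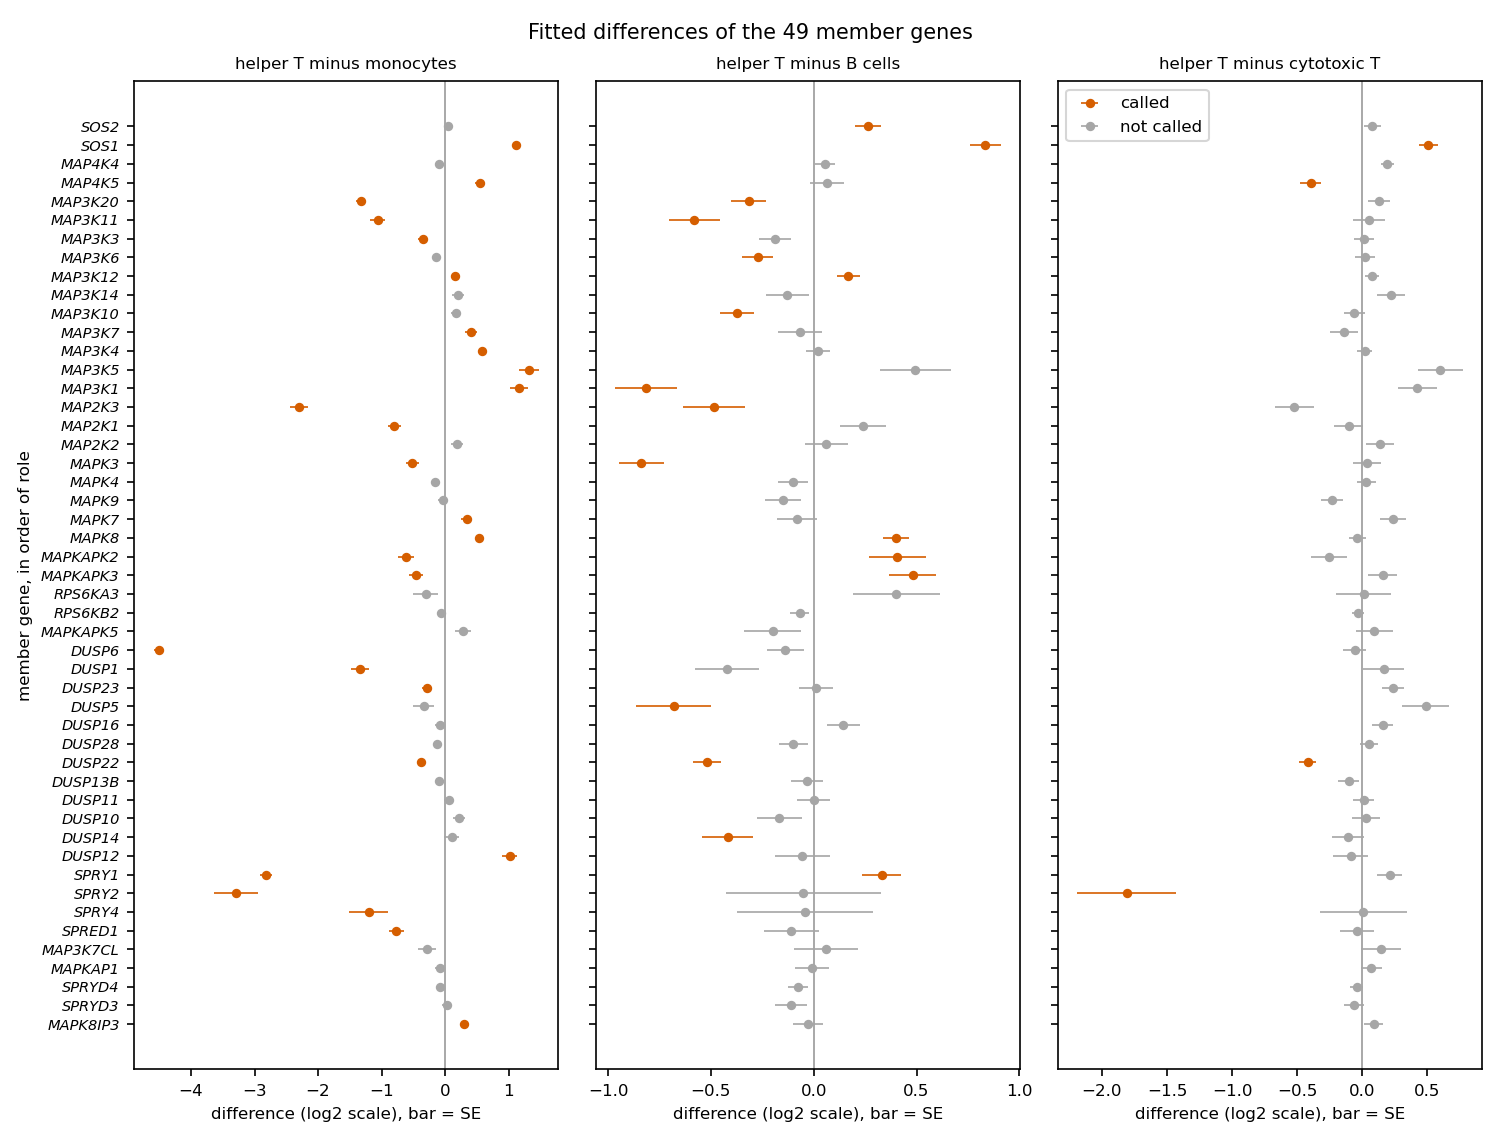
Fitted log2 differences of the 49 member genes between helper T cells and monocytes (left), B cells (middle) and cytotoxic T cells (right), with bars of 1 SE and called genes in orange. DUSP6 is at -4.51 and SPRY2 at -3.30 in the left panel, SOS1 is to the right of 0 and called in all 3, and 4 genes are called in the right panel.

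Genes next to the cascade that do not carry its names were read from 3 lists. Of the Ras to Raf list, 9 of 27 genes were measured and 7 differed by the F test, which 67.4% of all probes passed. LAMTOR2, a scaffold that places MEK1 on late endosomes, was highest in monocytes by 1.14 over the nearest type, and RRAS by 0.81. PEA15, which keeps ERK in the cytoplasm, was highest in B cells by 0.45 (adjusted p = 0.0436) and SHOC2 by 0.40 (0.0181). Of the list of activators of the stress kinases, 10 of 16 were measured and 7 differed, against the same 67.4%. TRAF6, the ubiquitin ligase between Toll-like receptors and MAP3K7, was lowest in monocytes, as MAP3K7 was. Its difference to the nearest type was -0.22 (adjusted p = 0.0216). STK24 was lowest in cytotoxic T cells by a difference of -0.91 (adjusted p = 0.0430). Whether the calls of the genes in these 3 lists hold without single animals was not examined.

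Of the list of nuclear targets of MAP kinases, 19 of 28 were measured and 15 differed by the F test, with 6 highest in monocytes, 4 highest in B cells and 3 lowest in monocytes. These counts stand beside 67.4%, 18.4%, 5.26% and 22.5% of all probes in the same order. The ERK-responsive transcription factors ETS2 (1.97 over the nearest type), FOSB (1.90), EGR3 (1.09) and EGR1 (0.58) were highest in monocytes. So were DDIT3 (0.39, adjusted p = 0.0316) and ATF3 (0.35, 0.00695). ETS1 was lowest there by a difference of -2.86, followed by CREB1 (-0.79) and MEF2D (-0.25). B cells were highest in MKNK2 (1.13), a kinase below ERK and p38, in MEF2C (0.73), MEF2D (0.54) and ATF2 (0.19, adjusted p = 0.0253). FOS, JUN, MYC and ELK4 did not differ by the F test (adjusted p = 0.0575, 0.066, 0.113 and 0.411), and FOS varied within each type with SDs of 0.92 to 1.73.

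Rank was examined as the slope of a member's level per step of rank, over the 5 arrays of helper T cells and the 5 of monocytes. No member probe passed limma's test in helper T cells, against 0% of all probes, or in monocytes, against 0%. At an unadjusted p under 0.05, 2 of 59 member probes passed in helper T cells, 3.39% against 5.57% of all probes, and 4 passed in monocytes, 6.78% against 6.45%. The smallest adjusted p of a member was 0.770 in helper T cells and 0.647 in monocytes. In a test of whether slopes differed between the cell types, 0 members passed, against 0.0274% of all probes, and 7 did so at an unadjusted p under 0.05 (11.9% against 9.49%), with a smallest adjusted p of 0.418. Each rank is 1 animal of 1 group, so effects of the rank, the animal and its group cannot be told apart.

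Single members still varied in ways that the plot by animal shows. SPRY4 in monocytes had a slope of -0.47 ± 0.18 per step (adjusted p = 0.647), through high arrays at ranks 1 and 2 and low ones at ranks 3 and 5. MAPKAPK2 in helper T cells had a slope of -0.18 ± 0.04 (adjusted p = 0.770), from 10.93 at rank 1 to 10.27 at rank 5. In the 4 arrays of cytotoxic T cells MAPKAPK2 went from 11.24 at rank 1 to 10.35 at rank 5. In the 4 of B cells its lowest value of 9.82 was also that of rank 5. Neither of these slopes passed limma's test (adjusted p = 0.340 and 0.492). The arrays come from the same animals as those of helper T cells, so they are no independent repeat. DUSP5, MAP2K3 and MAPKAPK2 each had their 2 lowest monocyte values at ranks 3 and 5, whereas MAP2K1 had its 2 highest there.

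**Figure D5:**
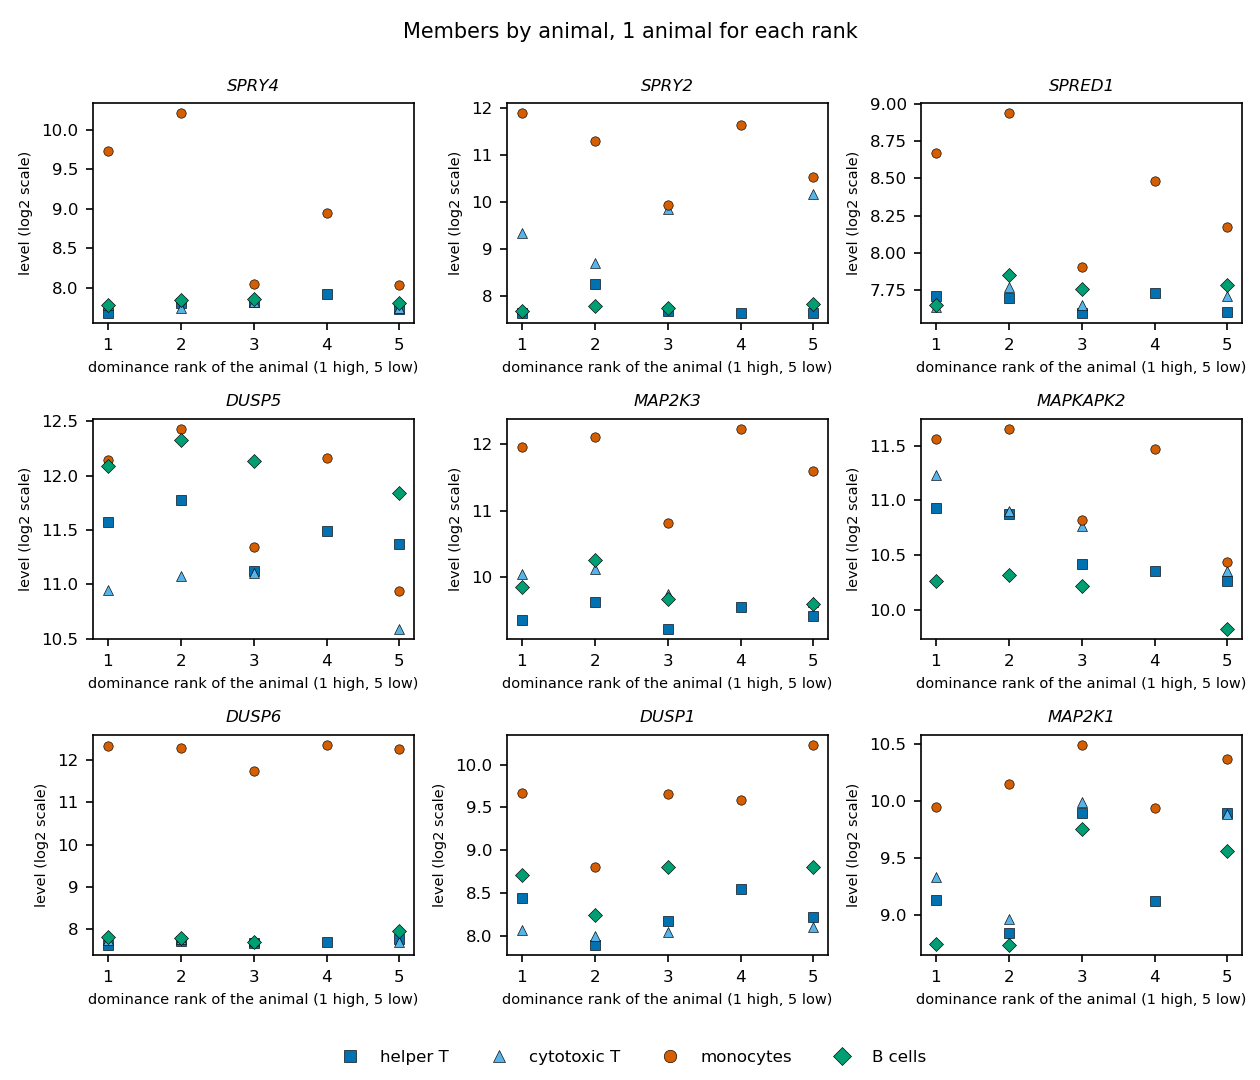
Level of 9 members (log2 scale, each panel with its own range, not starting at 0) against the dominance rank of the animal, with 1 animal for each rank and symbols for the 4 cell types. SPRY4, SPRY2, SPRED1, DUSP5 and MAP2K3 are low in the monocyte array of rank 3, MAP2K1 is high there, and no slope passed the test.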

How the data were processed

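RNA of 4 sorted cell populations of 5 animals was measured on Illumina arrays with human probes, 1 array for each population and animal. Per the labels' protocols, RNA was column-purified with DNase treatment and turned into biotinylated cRNA. The submitters' processing notes name lumi, with no version. The values the authors deposited are on a log scale whose base is not stated, and they were used as log2. Every array has the same distribution (median 8.39), so a level is relative to the rest of its array. The sources used here give neither the background correction, nor the filter to 7303 probes, nor the sort gate. The deposited table named as not normalized and the series' value table differ at 0 values. Detection p-values were not used, and no number but that of arrays sets the precision.

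Probes were named from the platform annotation: 6055 have 1 symbol, 1 has several and 1247 have none. All 49 member symbols occur in the RefSeq table of the rhesus macaque. Human probes may bind macaque transcripts unequally, so no difference in level between genes is reported. Levels of different probes were set side by side only to choose 1 probe for a gene, to place a value near the lower end of an array and for the bright-probe alternative. All 7303 probes of 18 arrays were fitted with limma 3.58.1 in R 4.3.3 (lmFit, eBayes), with cell type and the animal as a fixed block and 10 residual degrees of freedom. Benjamini-Hochberg adjustment ran over all probes in each contrast, with a threshold of 0.05. Rank slopes were fitted within a type without the block. The script was tested on simulated data.

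The arrays of 1 rank share an animal code in the labels. Deviations from the type means correlated at a median of 0.478 between arrays of 1 animal (0.238 to 0.809, 25 pairs) and at -0.248 between different animals and types (96 pairs). Deviations from a type mean cancel over its animals, so a positive correlation within animals by itself makes that between animals negative. The negative median is thus no separate sign of pairing. Nothing says that the arrays of a type differ other than by animal.

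The members and lists were chosen with earlier results of these data known. Values on each array are given for 18 genes: for each type up to 6 called highest and up to 3 called lowest, for each contrast the 4 called genes with the largest difference, and 10 named in advance where measured. Other genes named by value were chosen after their values were seen. Alternatives were all 20 arrays, no block, a random block, each animal left out, only bright probes and an intensity trend in eBayes.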

Additional observations from a re-analysis of the deposited data

Results flagged for a closer look

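For the 18 genes given array by array, 1 array stood far from the others of its type in 3 of 72 groups, measured as its gap to the nearest other array over the range of the group, and chance alone flags about 1 group in 20. DUSP1 in B cells was lowest in the array of rank 2, at 8.24, with the other 3 arrays at 8.71 to 8.81. DUSP6 in monocytes was lowest in the array of rank 3, at 11.74, with the other 4 at 12.27 to 12.36. SPRY2 in helper T cells was highest in the array of rank 2, at 8.26, with the other 4 at 7.62 to 7.67.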

How the results depend on the processing

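With all 20 arrays, the members called fell from 46 to 30 over the 4 types, from 4 to 2 between helper and cytotoxic T cells, from 21 to 6 between helper T and B cells and from 18 to 2 between cytotoxic T and B cells, and 0 were highest in cytotoxic T cells or B cells, where 1 and 3 had been. MAPK3 in monocytes minus B cells turned to 0.078 with them (adjusted p = 0.862). Shares of all probes are not given for the alternatives, so whether the members changed more than other probes was not tested. With no replicate block 13 members were called between helper T and B cells. That paired block moved no other count of members by over 1.5 times. Leaving out 1 animal gave 38 to 44 over the 4 types, 1 to 4 between helper and cytotoxic T cells, 35 to 40 for helper T cells and monocytes, 13 to 18 for helper T and B cells, 32 to 38 for cytotoxic T cells and monocytes, 12 to 18 for cytotoxic T and B cells and 31 to 38 for monocytes and B cells. The members highest were 15 to 19 in monocytes, 1 to 3 in B cells, 0 to 1 in cytotoxic T cells and 1 in helper T cells. Without the animal of rank 1 the counts were 1 for helper against cytotoxic T cells, 0 highest in cytotoxic T cells and 1 highest in B cells, and fewer arrays enter each of these fits. Of the 28 calls of a gene as highest or lowest, 19 held without any 1 animal, as did 88 of 127 contrast calls. For the genes named by rule, 335 values kept direction and side of the threshold, 34 kept direction and lost the call and 1 reversed. The bright-probe filter kept 4831 probes and 47 members. The random block was not run for rank, and the cause of these changes was not tested.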

Other observations

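The 2 rank 4 arrays that were left out, labelled cytotoxic T cells and B cells, lay outside the range of the other 18 arrays at many member probes. On both of them 14 of the 59 member probes were above all 18 arrays and 14 were below all 18. The same count was not made over all probes, so whether the members stood out from other probes was not tested. SPRED1 read 12.03 on the array labelled B cells, against 7.60 to 8.94 on the 18 arrays. A second MAPKAP1 probe read 11.22 and 10.89 on the arrays labelled cytotoxic T cells and B cells, against 8.00 to 8.33. DUSP5, which was at 10.59 or more on the 18 arrays, read 9.25 and 9.06 there.

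The members whose levels varied most between animals overlapped between types in part. MAP2K1, MAP3K7 and DUSP11 were among the 5 with the largest SDs in all 3 lymphocyte types, and none of them was in monocytes. SPRY4, SPRY2 and DUSP5 had the largest SDs in monocytes (0.98, 0.82 and 0.63), SPRY2 in cytotoxic T cells (0.64), MAP2K1 in helper T cells (0.49) and DUSP23 in B cells (0.59). DUSP11 had SDs of 0.41 to 0.53 in the lymphocytes, and its type means differed by 0.06 at most.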
